A study of Homo sapiens with 6 samples.

Results

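The 9 enzymes SQLE, LSS, CYP51A1, TM7SF2, MSMO1, NSDHL, EBP, SC5D and DHCR7 act one after another on squalene and turn it into cholesterol. They were chosen by name, as enzymes of the sterol-specific end of the pathway, and all 9 were found among the 29790 genes of the deposited table. The sequenced RNA came from the established human melanoma line A375 after 24 h with 3 µM fluvastatin (3 libraries) and from control A375 cells (3 libraries). Libraries are numbered 0, 1 and 2 in each group. All 6 come from a single line kept in serum-containing medium, which supplies lipoprotein cholesterol from outside. Whether the triplicates were separate cultures is not said in the labels, and p-values therefore cover no more than library-to-library spread, possibly technical. In bulk RNA a change in some cells and a change in all cells cannot be told apart.

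Fluvastatin blocks the reductase that makes mevalonate, far upstream of squalene. In mammalian cells low sterol in the endoplasmic reticulum releases SREBP2, a membrane-held transcription factor that switches on nearly every gene of cholesterol synthesis, and statins are known inducers of that programme in many cell types. After squalene the pathway runs in a fixed chemical logic, in which an epoxide is added, the chain is folded into the sterol rings, extra methyl groups are stripped off, and ring double bonds are moved and reduced.

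In these cells 1 of the 9 enzymes was called as risen, 1 as fallen and 7 were not called. LSS was 1.52-fold higher and DHCR7 1.44-fold lower in fluvastatin libraries, and these were the only members to pass the test, at a Benjamini-Hochberg adjusted p below 0.05 in limma over 14344 tested genes. All 9 members passed the expression filter of at least 1 FPKM in at least 3 libraries. The other 7 did not pass, with log2 fold changes of -0.33 to 0.40. Of all tested genes 27.7% were called, 14.1% as risen and 13.6% as fallen, so 1 riser and 1 faller among 9 is a share near that background. The median log2 fold change of the members was 0.07, against -0.01 over all tested genes. The summed level of the 9 enzymes was 204.4 ± 9.36 FPKM in fluvastatin libraries and 212.3 ± 2.98 FPKM in controls (SD, n = 3 each).

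The promoters of LSS and DHCR7 are shown because these members were called in opposite directions. Each window is the RefSeq promoter on GRCh38.p14, from 250 bases before to 50 after an annotated start, and capitals mark matches to CCAAT (the NF-Y box) and GGGCGG (the GC box bound by Sp1 factors) on either strand. SREBPs are known to act beside both kinds of factor.
LSS promoter, chr21:46228725-46229024, minus strand: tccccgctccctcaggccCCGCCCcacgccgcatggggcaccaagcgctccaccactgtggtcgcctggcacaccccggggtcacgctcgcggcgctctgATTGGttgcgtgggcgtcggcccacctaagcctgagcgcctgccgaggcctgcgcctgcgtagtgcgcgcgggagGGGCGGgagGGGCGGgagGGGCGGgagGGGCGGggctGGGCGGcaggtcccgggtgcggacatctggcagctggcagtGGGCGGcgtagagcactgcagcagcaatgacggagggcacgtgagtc
DHCR7 promoter, chr11:71448344-71448643, minus strand: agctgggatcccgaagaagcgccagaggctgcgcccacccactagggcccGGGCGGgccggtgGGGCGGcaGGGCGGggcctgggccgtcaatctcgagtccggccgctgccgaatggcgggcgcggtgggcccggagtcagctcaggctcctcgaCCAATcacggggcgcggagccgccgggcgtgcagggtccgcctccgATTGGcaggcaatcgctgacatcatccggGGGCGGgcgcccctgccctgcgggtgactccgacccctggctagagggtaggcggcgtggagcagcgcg

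The LSS window held 1 CCAAT and 7 GC box matches. The DHCR7 window held 2 CCAAT and 4 GC box matches, and the window of a further RefSeq start of DHCR7 held none. No match in either printed window overlapped another. Promoter windows were found for 8 of the 9 members, 10 windows in all. MSMO1 had 4 CCAAT matches, NSDHL 5 and EBP 3, while CYP51A1 had none. Over all 35116 RefSeq windows of that length, 34.6% held CCAAT and 45.0% held GGGCGG. The inner letters of the classical sterol element, searched as CACNCCA on both strands, were in the windows of MSMO1, TM7SF2, SC5D and EBP and in 17.6% of all windows. CACGTG, an E-box that SREBPs can also bind, was in the windows of LSS and SC5D and in 7.26% of all. A match is a description of letters and was not tested as a binding site.

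Values were taken as FPKM, which divides a gene's fragments by transcript length and by library size, so levels of different genes can be set side by side. The steps between low values gave relative depths of 1.27, 1.51 and 1.41 for fluvastatin replicates 0, 1 and 2, and of 1, 1.18 and 0.966 for control replicates 0, 1 and 2. Each fluvastatin library was deeper than each control, so depth and treatment cannot be told apart, and with depth as a covariate none of the 9 members passed. Of 9 melanocyte lineage markers 7 were in the table, and SOX10 and MITF averaged at least 1 FPKM. PMEL, TYRP1 and DCT, genes of pigment cells, each averaged below 1 FPKM. The summed marker level was 74.2 to 84.0 FPKM in fluvastatin libraries and 28.5 to 33.7 FPKM in controls, most of it SOX10, which averaged 72.0 FPKM in fluvastatin libraries and 23.3 FPKM in controls. MITF averaged 6.68 FPKM in fluvastatin libraries and 7.18 FPKM in controls, and the means of PMEL and TYRP1 were also lower in fluvastatin libraries. DCT averaged 0.0285 FPKM in fluvastatin libraries and 0.0278 FPKM in controls. The remaining lineage markers in the table, each averaging below 1 FPKM, did not share a direction. Of 10 markers of other cell types 7 were in the table, and KRT14 averaged at least 1 FPKM, with a summed level of 4.82 to 7.01 FPKM in fluvastatin libraries and 1.77 to 1.92 FPKM in controls. KRT14, a keratin of epithelial cells, averaged 4.99 FPKM in fluvastatin libraries and 0.691 FPKM in controls. KRT14 reached 1 FPKM in fluvastatin libraries alone, so a difference was built into its being singled out. KRT5, the other keratin of the list, averaged 0.270 FPKM in fluvastatin libraries and 0.151 FPKM in controls, and the groups overlapped. The fibroblast gene DCN averaged 0.0828 FPKM in fluvastatin libraries and 0.483 FPKM in controls, and LUM 0.503 FPKM in fluvastatin libraries and 0.485 FPKM in controls. The part of these differences in the results below was not tested.

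**Figure D1:**
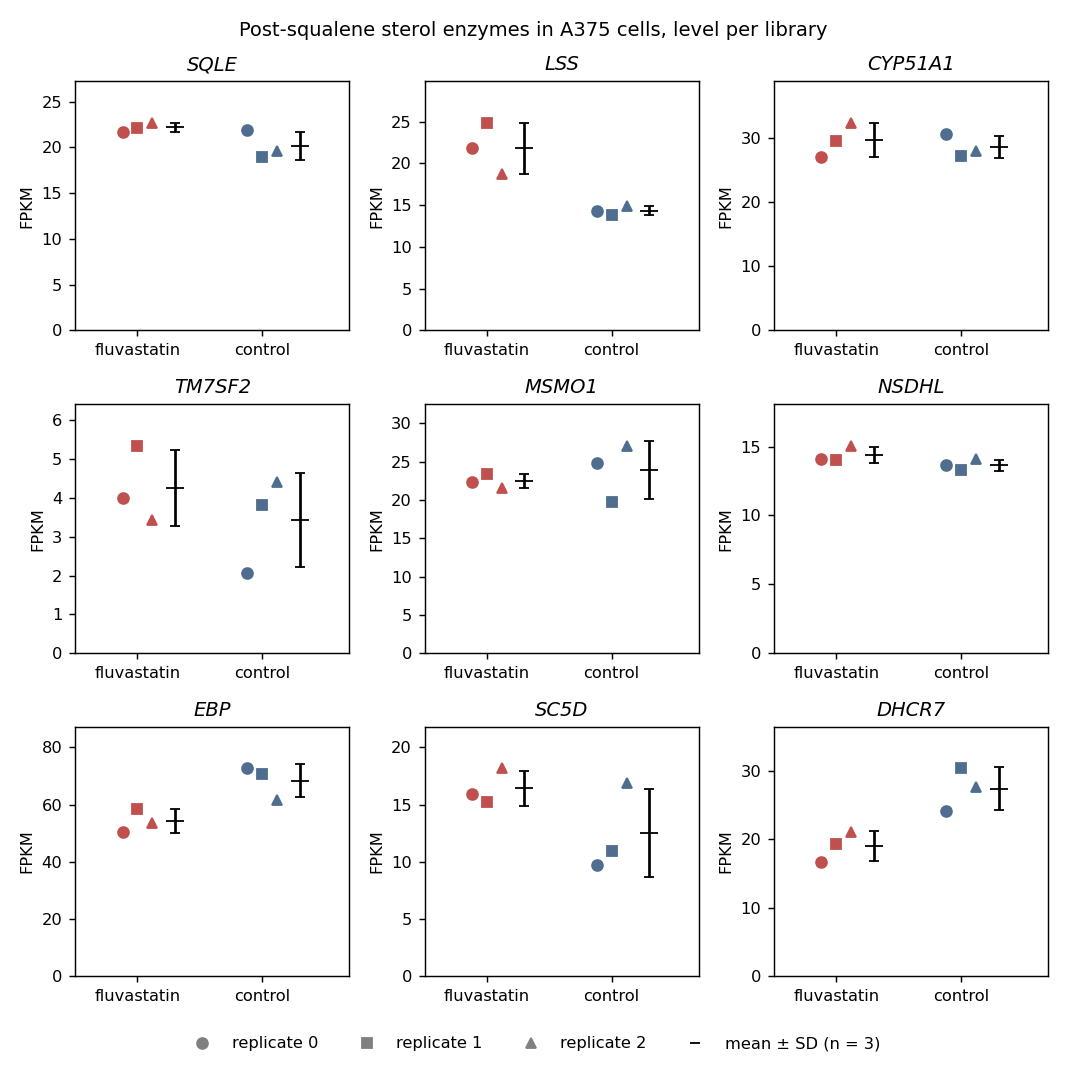
Level of each enzyme in FPKM (y axis, from 0) in the 3 fluvastatin and 3 control libraries, with replicate numbers as symbols and the mean ± SD beside them (n = 3). LSS lies higher in every fluvastatin library than in any control, EBP and DHCR7 lie lower, and the groups overlap in the other 6.

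SQLE, squalene monooxygenase, adds the epoxide oxygen and is regarded as a second flux-controlling step of the pathway. It was at 21.7, 22.2 and 22.7 FPKM in fluvastatin replicates 0, 1 and 2, against 21.9, 19.0 and 19.6 FPKM in control replicates 0, 1 and 2. Control replicate 0 lay inside the fluvastatin range, and the fluvastatin libraries were close together, with a coefficient of variation of 2.36% against 7.63% in controls. The log2 fold change was 0.13 ± 0.09 (SE; limma adjusted p = 0.308), and the 95% interval of the fold on the FPKM + 1 scale ran from 0.947 to 1.27. The gene (ENSG00000104549.11) lies on the plus strand of chromosome 8, positions 124998497 to 125022283 of GRCh38.

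LSS, lanosterol synthase, folds the epoxide into lanosterol, the earliest sterol of the pathway. It was at 21.8, 24.9 and 18.7 FPKM in fluvastatin replicates 0, 1 and 2, against 14.3, 13.8 and 14.9 FPKM in control replicates 0, 1 and 2. Every fluvastatin library was higher than every control, and the fluvastatin libraries spread more widely, with a coefficient of variation of 14.2% against 3.58%. The log2 fold change was 0.56 ± 0.12 (SE; limma adjusted p = 0.0157), with a 95% interval of the fold on the FPKM + 1 scale of 1.22 to 1.80. Of all tested genes, 90.2% had a lower log2 fold change than LSS. The call was lost without control replicate 1 (adjusted p = 0.0525), without fluvastatin replicate 0 (0.0537) and with depth as a covariate (0.332), over a range of 0.00760 to 0.332 across 14 alternatives. LSS (ENSG00000160285.14) lies on the minus strand of chromosome 21, positions 46188141 to 46228824. An antisense gene that shares 448 exonic bases with it, AP001468.1, was at 0 to 0.182 FPKM in all libraries.

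CYP51A1, the cytochrome P450 that takes the initial methyl group off lanosterol and the target of azole drugs in fungi, was at 27.1, 29.5 and 32.4 FPKM in fluvastatin replicates 0, 1 and 2. In control replicates 0, 1 and 2 it was at 30.6, 27.2 and 28.0 FPKM. The control range lay wholly within the fluvastatin range. The log2 fold change was 0.05 ± 0.10 (SE; limma adjusted p = 0.752), with a fold interval of 0.876 to 1.22. Its gene (ENSG00000001630.15; chromosome 7, 92112151 to 92134803, minus strand) overlaps 2 further protein-coding annotations on the same strand, of which 1 shares 2844 exonic bases. Neither annotation was among the genes of the deposited table, and reads from the shared exons cannot be divided between them here. Its antisense gene CYP51A1-AS1 was at 0 to 0.0491 FPKM in all libraries. Its 3 processed pseudogenes were each below 0.21 FPKM in every library.

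TM7SF2 reduces the ring double bond that CYP51A1 leaves behind, a step shared with the lamin B receptor LBR. It was the lowest member, at 3.99, 5.34 and 3.43 FPKM in fluvastatin replicates 0, 1 and 2 and at 2.06, 3.82 and 4.41 FPKM in control replicates 0, 1 and 2. The groups overlapped widely and the controls alone spanned more than the difference in means. Its log2 fold change was 0.27 ± 0.24 (SE; limma adjusted p = 0.446), with a fold interval of 0.812 to 1.79, the least certain of the members. Its 16 shared exonic bases with VPS51, a vesicle-tethering gene on the same strand at 55.0 to 71.3 FPKM, are a limit for so low a gene (ENSG00000149809.14; chromosome 11, 65111845 to 65116384).

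MSMO1 and NSDHL, together with a keto-reductase, strip off the methyl groups next to the sterol's hydroxyl. MSMO1, the methyl sterol monooxygenase, was at 22.4, 23.4 and 21.6 FPKM in fluvastatin replicates 0, 1 and 2, against 24.9, 19.7 and 27.1 FPKM in control replicates 0, 1 and 2. All fluvastatin values lay within the control range, and the log2 fold change was -0.08 ± 0.13 (SE; limma adjusted p = 0.702; fold interval 0.766 to 1.17). NSDHL, the decarboxylating dehydrogenase mutated in CHILD syndrome, was at 14.06, 14.05 and 15.1 FPKM in fluvastatin replicates 0, 1 and 2, against 13.6, 13.3 and 14.06 FPKM in control replicates 0, 1 and 2. Control replicate 2 lay just inside the fluvastatin range. NSDHL varied little, with coefficients of variation of 4.08% in fluvastatin libraries and 2.91% in controls, and had a log2 fold change of 0.07 ± 0.08 (SE; limma adjusted p = 0.556; fold interval 0.919 to 1.20). MSMO1 (ENSG00000052802.12) lies on chromosome 4, 165327623 to 165343160, and NSDHL (ENSG00000147383.10) on chromosome X, 152830967 to 152869729, both on the plus strand.

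EBP, the sterol isomerase that shifts the ring double bond and is mutated in an X-linked chondrodysplasia, was the highest member in both groups. It was at 50.5, 58.6 and 53.7 FPKM in fluvastatin replicates 0, 1 and 2, against 72.6, 70.8 and 61.7 FPKM in control replicates 0, 1 and 2. Every fluvastatin library was lower than every control. The log2 fold change was -0.33 ± 0.10 (SE), and the adjusted p of 0.0599 in limma missed the threshold. EBP passed in 3 of 14 alternatives, without control replicate 2 (0.0435), at a mean of at least 5 FPKM (0.0412) and with trend and robust on (0.0298), over a range of 0.0298 to 0.226. EBP made up 26.0%, 27.6% and 26.0% of the summed FPKM of the 9 enzymes in fluvastatin replicates 0, 1 and 2, against 34.0%, 33.9% and 28.8% in control replicates 0, 1 and 2. The gene (ENSG00000147155.10) lies on chromosome X, 48521158 to 48528716, plus strand.

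SC5D, the desaturase that acts on lathosterol and is mutated in lathosterolosis, was at 16.0, 15.2 and 18.2 FPKM in fluvastatin replicates 0, 1 and 2. In control replicates 0, 1 and 2 it was at 9.76, 11.0 and 16.9 FPKM. Control replicate 2 lay within the fluvastatin range and the other controls below it, giving the controls a coefficient of variation of 30.5% against 9.39%. Its log2 fold change was 0.40 ± 0.20 (SE; limma adjusted p = 0.183; fold interval 0.951 to 1.83). Without control replicate 2 it was 0.62, with adjusted p = 0.0193, so that library decides the call for SC5D (ENSG00000109929.9; chromosome 11, 121292453 to 121308694, plus strand).

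DHCR7 carries out the last ring reduction, is mutated in Smith-Lemli-Opitz syndrome, and also draws on the precursor of vitamin D. It was at 16.7, 19.3 and 21.0 FPKM in fluvastatin replicates 0, 1 and 2, against 24.1, 30.3 and 27.6 FPKM in control replicates 0, 1 and 2. Every fluvastatin library was lower than every control. DHCR7 had a log2 fold change of -0.50 ± 0.13 (SE; limma adjusted p = 0.0277), with a fold interval of 0.572 to 0.869, and 9.86% of tested genes had a lower log2 fold change. The call was lost without control replicate 1 (0.0829) or 2 (0.0644), without fluvastatin replicate 0 (0.0849) or 1 (0.0692), with no filter (0.0558) and with depth as a covariate (0.158), over a range of 0.0138 to 0.158. DHCR7 (ENSG00000172893.15; chromosome 11, 71428193 to 71452868, minus strand) is overlapped, outside its exons, by the antisense gene AP002387.1. That gene was at 1.03, 1.92 and 2.28 FPKM in fluvastatin replicates 0, 1 and 2, against 2.14, 2.82 and 3.02 FPKM in control replicates 0, 1 and 2, and it shares 0 exonic bases with DHCR7.

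In 3 of the 9 members (LSS, EBP and DHCR7) the groups did not overlap, against 44.8% of all tested genes. Of all tested genes 21.9% lay higher in every fluvastatin library, as LSS did, and 22.9% lay lower, as EBP and DHCR7 did. The exact two-sided permutation test gave p = 0.1 for each of these, the smallest that 3 against 3 libraries allow. It gave 0.2 for SQLE and NSDHL, 0.3 for SC5D, 0.5 for TM7SF2, 0.6 for MSMO1 and 0.7 for CYP51A1.

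The order of the enzymes by level differed in its middle between the groups. In fluvastatin libraries it ran EBP, CYP51A1, MSMO1, SQLE, LSS, DHCR7, SC5D, NSDHL and TM7SF2, from a mean of 54.2 down to 4.25 FPKM. In controls it ran EBP, CYP51A1, DHCR7, MSMO1, SQLE, LSS, NSDHL, SC5D and TM7SF2, from 68.4 down to 3.43 FPKM. EBP stood apart at the top and TM7SF2 at the bottom in both groups. In fluvastatin libraries the neighbours from MSMO1 down to SC5D overlapped in their ranges, and in controls so did those from CYP51A1 down to SQLE and those from LSS down to SC5D, so the order of adjacent enzymes in those runs is not resolved by their ranges. Enzymes further apart in a run could still separate, as MSMO1 lay above DHCR7 and SC5D in fluvastatin libraries, and CYP51A1 and DHCR7 above SQLE in controls. DHCR7 had rank 6 in fluvastatin libraries and rank 3 in controls. Against all tested genes, the mean of EBP over the 6 libraries exceeded that of 86.4%, that of CYP51A1 70.8% and that of TM7SF2 24.6%.

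Ratios between 2 enzymes within a library do not depend on how libraries were scaled against each other. LSS stood at 1.30, 1.29 and 0.888 times the FPKM of DHCR7 in fluvastatin replicates 0, 1 and 2, against 0.592, 0.457 and 0.538 times in control replicates 0, 1 and 2. The mean log2 ratio was 1.12 higher in fluvastatin libraries, the widest shift of the 36 pairs, and the groups did not overlap. SC5D stood at 0.956, 0.788 and 0.864 times DHCR7 in fluvastatin replicates 0, 1 and 2, against 0.405, 0.361 and 0.612 times in control replicates 0, 1 and 2. MSMO1 stood at 1.40, 1.54 and 1.19 times SC5D in fluvastatin replicates 0, 1 and 2, against 2.55, 1.80 and 1.61 times in control replicates 0, 1 and 2. SQLE stood at 0.995, 0.891 and 1.22 times LSS in fluvastatin replicates 0, 1 and 2, against 1.53, 1.37 and 1.32 times in control replicates 0, 1 and 2. In all, 15 of 36 pairs (41.7%) did not overlap between groups, against 43.3% of the 125982 ratios of a member to another tested gene that could be formed, so the share is near the background. LSS was in 6 of these pairs, DHCR7 in 6 and EBP in 4, and 1 pair, MSMO1 with SC5D, held none of these 3.

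**Figure D2:**
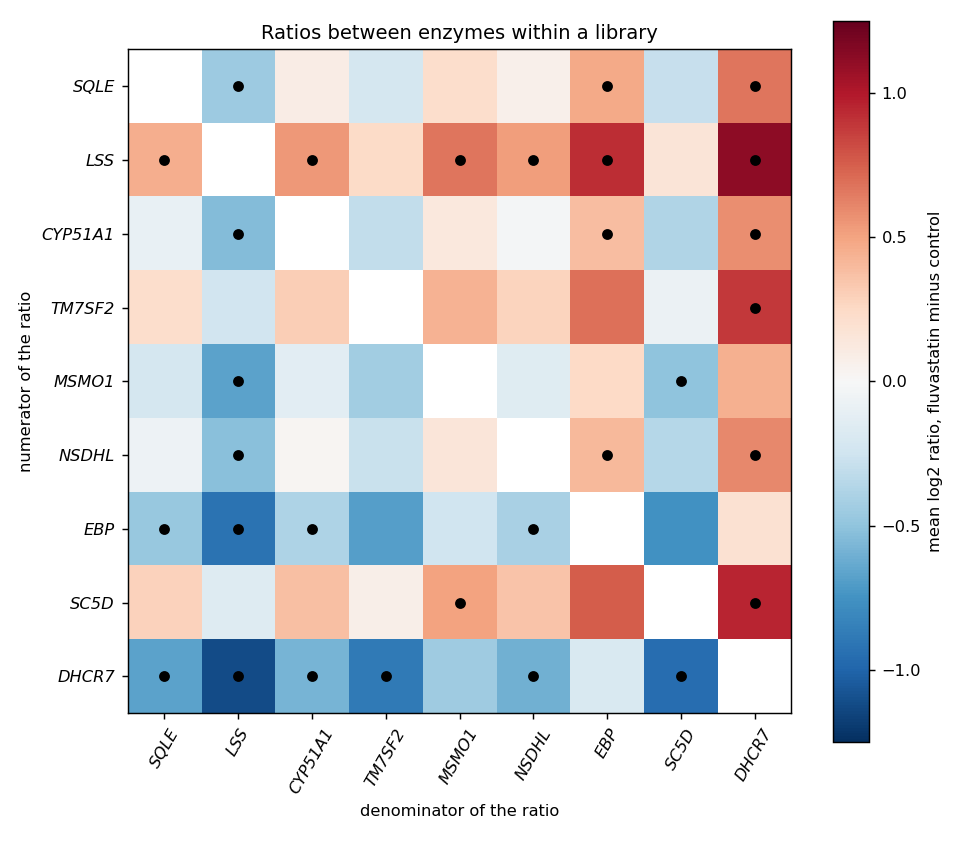
Mean log2 ratio of the enzyme on the y axis to the enzyme on the x axis within a library, fluvastatin minus control (colour), with a dot where the groups do not overlap. The LSS row is higher against DHCR7 by 1.12, and the dots gather in the rows and columns of LSS, DHCR7 and EBP.

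Of 9 enzymes that lead up to squalene, 1 rose, 3 fell and 5 did not pass, against 14.1% of all tested genes risen and 13.6% fallen, with a median log2 fold change of -0.05. FDFT1, squalene synthase, which makes the substrate of SQLE, was at 60.4, 71.5 and 74.8 FPKM in fluvastatin replicates 0, 1 and 2, against 100.2, 96.0 and 89.5 FPKM in control replicates 0, 1 and 2 (limma adjusted p = 0.0230). ACAT2, the thiolase that begins the pathway, fell 1.38-fold to 24.3 ± 2.66 FPKM, against 33.5 ± 2.05 FPKM in controls. FDPS, which makes farnesyl diphosphate, fell 1.23-fold to 88.8 ± 4.49 FPKM, against 109.1 ± 3.58 FPKM in controls (SD, n = 3 each). Without fluvastatin replicate 0 or control replicate 1, none of the 9 early enzymes passed. FDFT1 missed the threshold without fluvastatin replicate 0 (0.0647) or 1 (0.0529) and without control replicate 0 (0.0674) or 1 (0.0678), ACAT2 without fluvastatin replicate 0 (0.0754) or 2 (0.0686) and without control replicate 1 (0.0769) or 2 (0.0597), and FDPS without any 1 of the 6 libraries (0.0594 to 0.135).

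Of 5 other ring and side chain enzymes and homologues 1 fell and 3 did not pass, against 27.7% of all tested genes called and 13.6% fallen, and FAXDC2 is given as values alone. FAXDC2, a hydroxylase homologue related to MSMO1 and SC5D, was at 2.38, 1.79 and 2.25 FPKM in fluvastatin replicates 0, 1 and 2, against 0.342, 0.728 and 0.488 FPKM in control replicates 0, 1 and 2. It reached the 1 FPKM of the expression filter in the fluvastatin libraries alone, so a difference was built into its selection and no test is given. EBPL, a homologue of EBP without known isomerase activity, fell 1.33-fold to 32.0 ± 1.93 FPKM, against 42.5 ± 4.95 FPKM in controls (SD, n = 3 each). Its call held in 4 of 14 alternatives, and was lost among others without control replicate 1 (0.118) or 2 (0.0990) and without fluvastatin replicate 0 (0.127), 1 (0.0696) or 2 (0.108). LBR, which can stand in for TM7SF2, was at 49.8 ± 3.83 FPKM in fluvastatin libraries and 58.2 ± 3.61 FPKM in controls (SD, n = 3 each; limma adjusted p = 0.141).

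Several of the enzymes need electrons from partner proteins, SQLE and CYP51A1 from the reductase POR, and MSMO1 and SC5D by way of cytochrome b5. Of 8 partner and turnover genes 1 rose, 3 fell and 4 did not pass, against 14.1% risen and 13.6% fallen over all tested genes, with a median log2 fold change of 0.01. CYB5R3, the reductase that charges cytochrome b5, was at 90.7, 90.0 and 84.1 FPKM in fluvastatin replicates 0, 1 and 2, against 50.1, 54.8 and 47.5 FPKM in control replicates 0, 1 and 2. Every fluvastatin library was higher, and the log2 fold change was 0.79 ± 0.09 (SE; limma adjusted p = 0.00217). The carriers themselves went the other way, with CYB5A 1.32-fold lower at 21.6 ± 0.844 FPKM in fluvastatin libraries and 28.4 ± 0.883 FPKM in controls. CYB5B was 1.27-fold lower, at 84.0 ± 4.04 FPKM in fluvastatin libraries and 106.4 ± 1.50 FPKM in controls. PGRMC1, a haem-binding partner of cytochromes P450, was 1.28-fold lower, at 44.1 ± 2.20 FPKM in fluvastatin libraries and 56.3 ± 2.03 FPKM in controls (SD, n = 3 each). CYB5A missed the threshold without fluvastatin replicate 0 (0.0558) or 2 (0.0565) and without control replicate 0 (0.0522), CYB5B without fluvastatin replicate 0 (0.0806) or 1 (0.0754) and without any 1 control (0.0503 to 0.0769), and PGRMC1 without any 1 of the 6 libraries (0.0555 to 0.0880). With depth as a covariate CYB5R3 gave a log2 fold change of 0.64 (adjusted p = 0.172).

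Among 8 genes that control SREBP, 1 rose, 0 fell and 7 did not pass, against 14.1% risen and 13.6% fallen over all tested genes. Every fluvastatin library was higher than every control in 3 of the 8, against 21.9% of all tested genes, and lower in 0, against 22.9%. The median log2 fold change of these 8 was 0.08. INSIG2, a retention factor for the SREBP escort protein, stood at 13.5, 14.5 and 14.1 FPKM in fluvastatin replicates 0, 1 and 2, against 6.73, 6.14 and 6.40 FPKM in control replicates 0, 1 and 2. It rose 2.19-fold (log2 fold change 1.02 ± 0.08, SE; limma adjusted p = 6.54e-04), a call lost among 14 alternatives only with depth as a covariate (0.0870), where the log2 fold change was 1.03. SREBF2, which encodes SREBP2, was at 54.3 ± 3.96 FPKM in fluvastatin libraries and 43.5 ± 3.38 FPKM in controls (SD, n = 3 each), higher in every fluvastatin library than in any control. Its log2 fold change of 0.31 missed the threshold in limma (adjusted p = 0.0599) and passed in 3 of 14 alternatives, over a range of 0.0315 to 0.645. In the same fit INSIG1 gave 0.806, C12orf49 0.312 and MBTPS1 0.323. Of 7 enzymes of sterol esters and oxysterols 2 were expressed highly enough to test and 0 passed in limma, with 0 also at an unadjusted p below 0.05. SOAT1, which esterifies cholesterol, was at 39.0 ± 4.23 FPKM in fluvastatin libraries and 33.8 ± 0.460 FPKM in controls (SD, n = 3 each; adjusted p = 0.205), and CYP27A1, a sterol hydroxylase of mitochondria, gave adjusted p = 0.331.

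**Figure D3:**
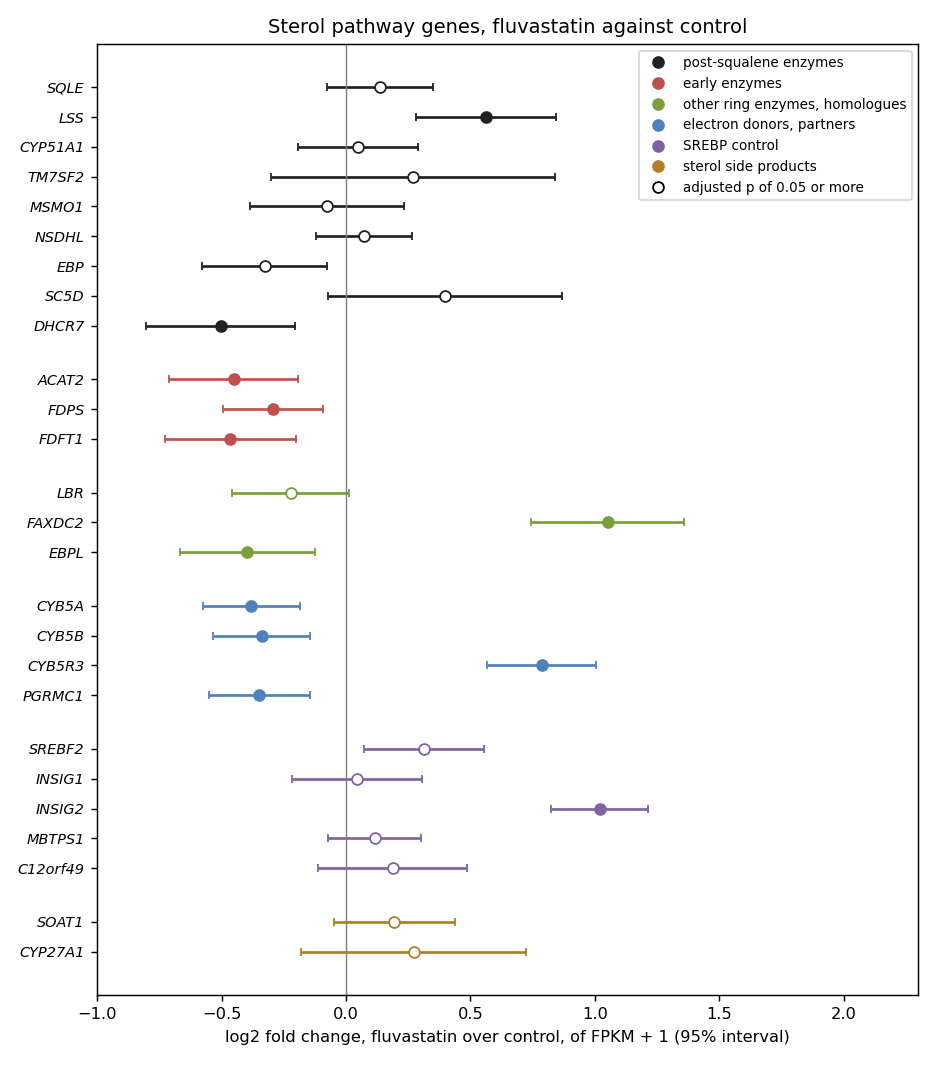
Log2 fold change of FPKM + 1, fluvastatin over control, with 95% intervals (bars) for the 9 enzymes and the named genes of the other lists. Filled points passed at a limma adjusted p below 0.05, and among the 9 these are LSS at 0.56 and DHCR7 at -0.50. FAXDC2 reached the expression filter in fluvastatin libraries alone. A difference was thus built into its selection, and its filled point is not read as a test result.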

How the data were processed

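Libraries of total RNA were made with Illumina protocols, per the labels. The submitters' processing notes list STAR, Cufflinks, Cuffdiff and hg38. The deposited values carry no unit name and were taken as the authors' FPKM, as Cufflinks gives and as values that are not whole fit. Versions, annotation, strand setting and rescaling between libraries are not given in the sources used here. Absolute depth is unknown, and relative depth is the commonest ratio between libraries among genes at 0 in at least 1 library.

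The limma fit (3.58.1, R 4.3.3) used log2(FPKM + 1) and genes reaching 1 FPKM in 3 or more libraries, two-sided, with Benjamini-Hochberg adjustment over all tested genes, and was tested on simulated data. Folds, means and SDs are on the FPKM scale. Log2 fold changes and intervals are on the FPKM + 1 scale, which understates changes of low genes. Positions and overlaps came from GENCODE release 29 (29542 of 29790 identifiers matched) and promoters from RefSeq.

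Members and lists were chosen with earlier results of these data known. Named are the 9 members, up to 4 genes per other list with the smallest adjusted p, SREBF2, INSIG1 and the 3 genes nearest in pattern to each called member. Markers and overlapping genes serve as checks. Some genes of the lists are not reported here. Alternatives were another pseudocount, filter, scaling, variance model, a replicate block, a depth covariate and each library left out.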

Additional observations from a re-analysis of the deposited data

How the results depend on the processing

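Over 14 alternatives SQLE, NSDHL, EBP, SC5D, LSS and DHCR7 kept their direction. CYP51A1 reversed to -0.014 without fluvastatin replicate 2. MSMO1 reversed to 0.017 without control replicate 2 and to 0.255 with depth as a covariate, and TM7SF2 reversed to -0.05 with that covariate. None of these 3 was called in any setting, and the cause was not tested. With depth as a covariate LSS (log2 fold change 0.53) and DHCR7 (-0.83) lost their calls, as did DHCR7 with no filter (-0.50), while EBP gained one with trend and robust on and with a filter on means under 5 FPKM (-0.33 in both). Leaving out each library in turn gave log2 fold changes of 0.47 to 0.66 for LSS, -0.59 to -0.42 for DHCR7, -0.40 to -0.28 for EBP, 0.25 to 0.62 for SC5D, 0.025 (without control replicate 0) to 0.435 for TM7SF2, 0.040 to 0.091 for NSDHL, -0.014 to 0.111 for CYP51A1 and -0.203 to 0.017 for MSMO1, with 0 to 2 members that rose and 0 to 1 that fell. The members that rose numbered 0 with the depth covariate. Those that fell numbered 0 with the covariate or no filter and 2 with trend and robust on or the 5 FPKM mean.

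Calls in each of 4 other lists numbered 0 with the depth covariate, where 61 of 14344 genes passed in all, against 3971 without it. With each library left out they numbered 0 to 2 among early enzymes and 1 to 2 among partners. Among other ring enzymes, with FAXDC2 left aside, EBPL alone was called in these fits, and only without control replicate 0. EBPL missed the threshold with no filter (limma adjusted p = 0.0700), quantile normalization (0.0518) or a pseudocount of 0.1 (0.0519). It passed at the 5 FPKM mean, where FAXDC2 was untested. SREBP control genes had 2 with quantile normalization, trend and robust on, or the 5 FPKM mean. Deviations of same-numbered libraries from their group means correlated at -0.002, 0.085 and 0.084 across genes. Those of differently numbered libraries correlated at -0.136 to 0.058. With 3 libraries per group these values cannot show whether same-numbered libraries shared a culture or batch. With the replicate number as a block, LSS (limma adjusted p = 0.0437) and DHCR7 (0.0316) kept their calls, and EBPL (0.0520) lost its call. The block left 2 calls among early enzymes and 2 among partners, of 3154 over all genes. TM7SF2 could not be tested at the 5 FPKM mean. The number of pairs without overlap was 15 on FPKM + 1, the same as on FPKM.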

Other observations

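The genes nearest in pattern to the called members were sought by the root mean square distance of log2(FPKM + 1) values, each centred over the 6 libraries, among 14335 other tested genes. Nearest to LSS was PLEKHN1, which encodes a protein with pleckstrin homology domains, at a distance of 0.0208. It was at 8.08, 9.17 and 6.84 FPKM in fluvastatin replicates 0, 1 and 2, against 5.20, 4.97 and 5.16 FPKM in control replicates 0, 1 and 2. ASL, the argininosuccinate lyase of the urea cycle, followed at 0.0397, with 29.6 ± 4.92 FPKM in fluvastatin libraries and 19.9 ± 0.442 FPKM in controls (SD, n = 3 each), and then the zinc finger gene ZNF641 at 0.0533. Both LSS and these genes were highest in fluvastatin replicate 1 and lowest of the treated libraries in replicate 2. ZNF641 was at 1.13 to 1.62 FPKM in fluvastatin libraries and 0.618 to 0.718 FPKM in controls. It thus reached the expression filter in fluvastatin libraries alone, and a difference was built into its selection. Nearest to DHCR7 were DIXDC1 at 0.0416, FAM171B at 0.0457 and a gene listed under a clone name at 0.0477, each with every fluvastatin library lower than every control. These genes were chosen by nearness over the 6 libraries, so a shared order or direction was largely built into the choice. Such nearness is a description of values.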
